A study of Mus musculus with 12 samples.

Results

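The 9 enzymes followed here carry carbon along the mevalonate pathway, from acetoacetate and acetyl-CoA to farnesyl and geranylgeranyl diphosphate: Aacs, Acat2, Hmgcs1, Mvk, Pmvk, Mvd, Idi1, Fdps and Ggps1. They were taken as a list of genes, and each was measured by the probes that the annotation of the array names for that gene alone. A single probe was found for 8 of the 9, out of 18069 genes with such a probe, and all 8 passed the filter on low values along with 16323 genes in all. Acat2, the cytosolic thiolase that joins 2 acetyl-CoA, is not analysed here.

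RNA of 1 whole ovary from each of 12 female mice was hybridized one by one. The mice make up 4 groups of 3: lethal yellow (LY; C57BL/6J Ay/a) and black (C57BL/6J a/a) littermates at 180 days of age, and the same genotypes at 90 days. The sample labels write the strain as C56BL/6J. The Ay mutation is a deletion that puts the agouti gene under a promoter active in all tissues, so LY mice make agouti in the ovary itself as well as in the brain, and they grow obese as adults. All mice of the 4 groups were given the GnRH antagonist Antide at 10 μg/g on days 1 and 4 and then equine chorionic gonadotropin (eCG) at 1 IU/5 g body weight, which drives follicles to grow, and ovaries were taken 36 h after eCG, on day 7. None of the groups was therefore in a natural cycle, and the black mice carry both treatments as well.

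The mevalonate pathway is the route by which cells make isoprenoid units. Its end products feed cholesterol synthesis, and with it the steroid hormones of the ovary, but also the lipid tails of prenylated proteins, dolichol and ubiquinone. Genes of the pathway are known targets of SREBP-2, a transcription factor held in the endoplasmic reticulum when sterols are plentiful and released when they are scarce.

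Values are relative intensity units, in which the median probe of an array is 1 and the limit of sensitivity is 0.2. Agouti stood at 0.169 to 0.368 units on the 6 arrays of black mice and at 95.7 to 111 on the 6 of LY mice, so the genotype labels hold on every array. Ovarian markers were present (Inha, the inhibin alpha chain, had group means of 66.4 to 136 units), and the liver marker Alb lay under 0.2 units on all arrays. Correlations of log2 values were 0.970 to 0.987 for arrays of the same group, 0.963 to 0.984 across genotypes of an age and 0.918 to 0.938 across ages. Since each age was run as a set of its own, age cannot be told apart from the array set. The arrays of 90-day black replicate 1 and 90-day LY replicate 1 stood apart from their groups on principal components 2 and 3. A fall in a transcript of a whole ovary can come from fewer cells of a type or from less RNA per cell, and these cannot be told apart.

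In ovaries of 180-day mice, 7 of the 8 measured enzymes were higher in each LY mouse than in any black mouse, by 1.78- to 2.62-fold, and Ggps1 alone was not. Of the 8, 4 rose past the threshold of limma's test over all probes (Hmgcs1, Mvk, Idi1 and Fdps), where 0.0415% of all 31359 probes tested rose past it, and none fell. In ovaries of 90-day mice, by contrast, 5 of the 8 were lower in each LY mouse than in any black mouse, at 0.687 to 0.873 of the black level, but none passed the test. Of all probes, 14.2% were higher in each LY mouse at 180 days and 9.56% lower in each at 90 days. The median difference over the 8 enzymes was 0.90 on the log2 scale at 180 days (0.03 over all probes) and -0.28 at 90 days (-0.0039 over all probes).

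**Figure D1:**
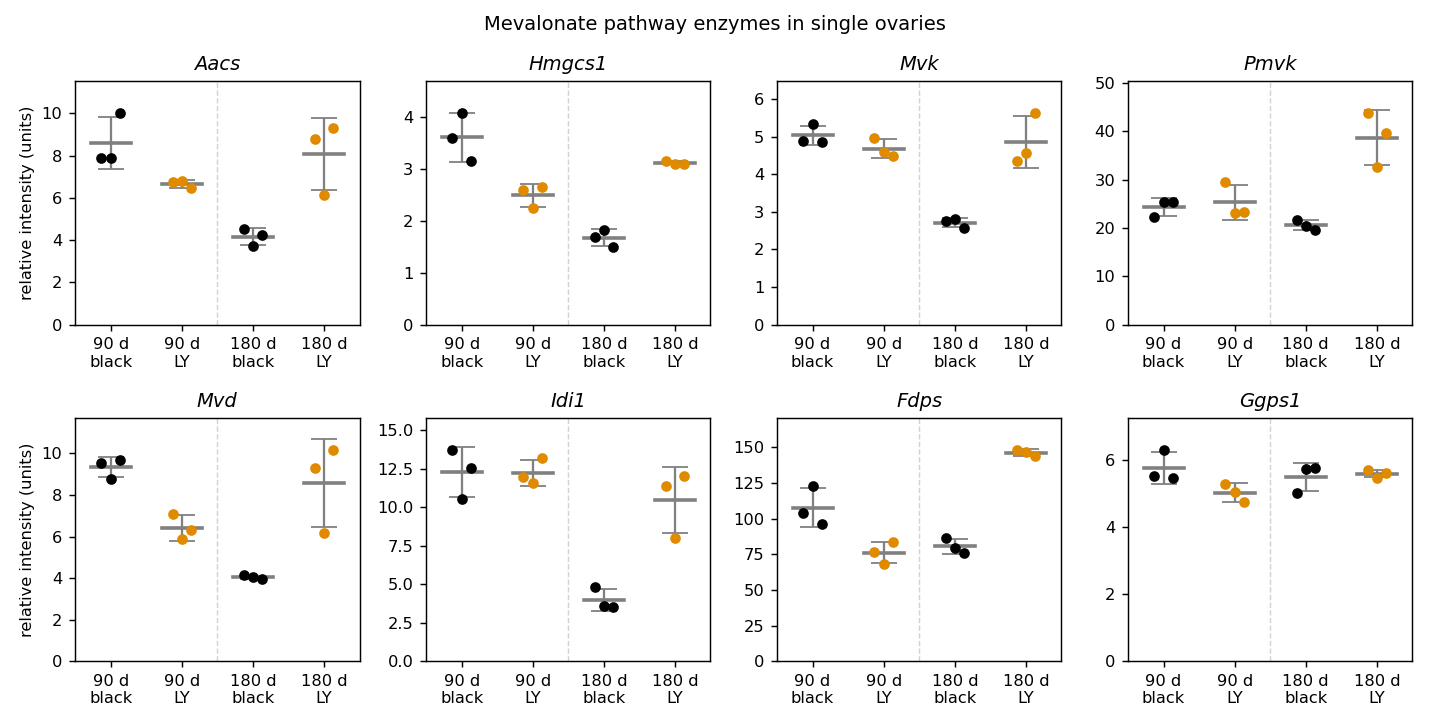
Relative intensity of the 8 measured enzymes (linear axis from 0, in units of the median probe) in each of the 12 mice, coloured by genotype (LY orange, black mice black), the mean as a grey line and the SD (n = 3) as bars. Black mice of 180 days are the lowest group for 6 of the 8 enzymes and LY mice of 180 days the highest for Pmvk and Fdps, while the groups of Ggps1 lie between 4.75 and 6.32 units throughout.

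Aacs, acetoacetyl-CoA synthetase, activates the ketone body acetoacetate in the cytosol and so opens a second entry into the pathway. At 180 days it stood at 4.54, 3.73 and 4.22 units in black mice (replicates 1 to 3) and at 8.79, 6.14 and 9.30 in LY mice. The LY mice were all higher, with replicate 2 nearest to the black mice, and the difference was 1.91-fold (95% confidence interval of the log2 difference 0.58 to 1.29), outside the threshold (adjusted p = 0.0990 from limma). At 90 days it stood at 7.89, 7.91 and 10.0 units in black and at 6.74, 6.80 and 6.46 in LY mice, so every LY mouse was lower (0.779-fold, adjusted p = 0.368 from limma).

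Hmgcs1, the cytosolic HMG-CoA synthase, condenses acetoacetyl-CoA with another acetyl-CoA. It rose in LY mice of 180 days, from 1.691, 1.829 and 1.498 units in black mice to 3.15, 3.10 and 3.09, by 0.90 on the log2 scale (standard error 0.12; 1.87-fold, 1.56 to 2.23; adjusted p = 0.0345 from limma). The 3 LY mice were nearly equal, with a coefficient of variation of 0.911% against 9.94% in black mice. At 90 days the order of the genotypes was turned round: black mice stood at 3.60, 4.08 and 3.14 units and LY mice at 2.59, 2.24 and 2.65, again with no overlap (log2 difference -0.53, standard error 0.12, adjusted p = 0.113 from limma).

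Mvk, mevalonate kinase, takes mevalonate into the series of phosphorylated intermediates. It rose in LY mice of 180 days from 2.75, 2.81 and 2.58 units to 4.34, 4.57 and 5.63 units, by 0.83 on the log2 scale (standard error 0.11; 1.78-fold, 1.51 to 2.09; adjusted p = 0.0331 from limma). At 90 days the groups overlapped, with black mice at 4.89, 5.33 and 4.86 units and LY mice at 4.952, 4.598 and 4.486 (adjusted p = 0.721 from limma). The confidence interval of that difference ran from 0.791- to 1.09-fold.

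Pmvk, phosphomevalonate kinase, adds the next phosphate. It had 21.7, 20.5 and 19.6 units in black and 43.9, 32.7 and 39.6 in LY mice of 180 days, with no overlap (1.87-fold, 1.52 to 2.28), and lay just outside the threshold (adjusted p = 0.0512 from limma). At 90 days it was 22.2, 25.5 and 25.5 units in black and 29.5, 23.2 and 23.4 in LY mice. Those groups overlapped, and of the LY mice replicate 1 alone lay above the black mice (1.03-fold, 0.845 to 1.27, adjusted p = 0.911 from limma).

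The decarboxylase Mvd, which acts on mevalonate diphosphate, spends ATP to release isopentenyl diphosphate, the first isoprenoid unit. It had 4.13, 4.04 and 3.97 units in black mice of 180 days, the tightest group of black mice among the 8 enzymes (coefficient of variation 2.07%), and 9.31, 6.17 and 10.2 in LY mice, the widest (24.7%). No LY mouse overlapped the black mice, and the difference was 2.07-fold (1.61 to 2.65) with an adjusted p of 0.0610 from limma. At 90 days black mice stood at 9.53, 8.79 and 9.67 units and LY mice at 7.09, 5.87 and 6.31, all lower (0.687-fold, 0.535 to 0.882, adjusted p = 0.207 from limma).

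Idi1, the isomerase that turns isopentenyl into dimethylallyl diphosphate and thus sets the balance of both building blocks, had the largest difference of the 8 at 180 days. It rose from 4.81, 3.57 and 3.56 units in black to 11.38, 8.02 and 12.03 in LY mice, by 1.39 on the log2 scale (standard error 0.18; 2.62-fold; adjusted p = 0.0331 from limma), and ranked 72nd among all probes by size of increase. At 90 days the genotypes did not differ beyond their spread, with black mice at 13.8, 10.5 and 12.5 units and LY mice at 11.98, 11.57 and 13.2 (log2 difference 0.0041, standard error 0.18, 0.765- to 1.31-fold, adjusted p = 0.997 from limma). Its paralog Idi2 lay under 0.2 units on all 12 arrays.

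Fdps, farnesyl diphosphate synthase, joins the 5-carbon units into the 15-carbon farnesyl diphosphate at the branch point of the pathway, and was the brightest of the 8 probes. It rose from 86.3, 79.1 and 76.3 units in black mice of 180 days to 148, 146 and 144 in LY mice, by 0.86 on the log2 scale (standard error 0.11; 1.82-fold, 1.54 to 2.15; adjusted p = 0.0331 from limma). As for Hmgcs1, the LY mice of 180 days hardly varied (coefficient of variation 1.52%). At 90 days black mice stood at 104, 123 and 96.3 units and LY mice at 76.6, 68.5 and 83.5, without overlap (0.709-fold, 0.599 to 0.839, adjusted p = 0.113 from limma).

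Ggps1, geranylgeranyl diphosphate synthase, extends farnesyl diphosphate by 1 more unit, for protein prenylation rather than for sterols. It had 5.03, 5.73 and 5.75 units in black and 5.69, 5.48 and 5.62 in LY mice of 180 days, a 1.02-fold difference with an interval of 0.886 to 1.17 (adjusted p = 0.936 from limma). That interval lay below the intervals of the other 7 enzymes. At 90 days it had 5.53, 6.32 and 5.47 units in black and 5.30, 5.04 and 4.75 in LY mice, all lower, though by little (0.873-fold, 0.759 to 1.00, adjusted p = 0.391 from limma).

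**Figure D2:**
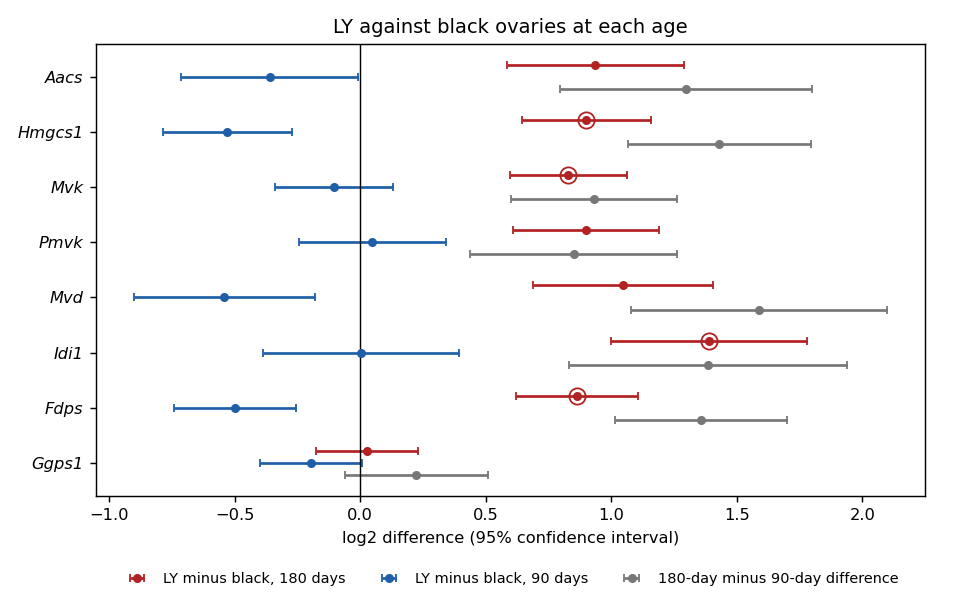
Difference of LY from black mice on the log2 scale at 180 days (red), at 90 days (blue) and the 180-day minus the 90-day difference (grey), as estimates of limma with 95% confidence intervals, with a ring round those that passed the threshold over all probes. The red intervals of 7 enzymes lie wholly above 0 and that of Ggps1 spans it, the blue intervals of Aacs, Hmgcs1, Mvd and Fdps lie wholly below 0, and the 4 rings are those of Hmgcs1, Mvk, Idi1 and Fdps at 180 days.

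Complete separation at 180 days, with LY mice on the upper side, was seen in 14.2% of all probes and in 7 of the 8 enzymes. The same 7 had an unadjusted p under 0.05 in limma, as did 7.05% of all probes in that direction. The 7 ranked between 72nd (Idi1) and 312th (Mvk) of 31359 by the size of the increase, and Ggps1 ranked 15742nd. The 4 calls rested on small margins. They became 1 without 180-day black replicate 1 (Idi1), 0 without replicate 2 or 3, 1 without 180-day LY replicate 1 (Mvk), 0 without LY replicate 3, and 4 without LY replicate 2 (Aacs, Pmvk, Mvd and Idi1), of which Idi1 alone was among the 4 called with all arrays. The 90-day arrays share the estimate of the spread, and leaving out one of them gave 0 calls (black replicate 1, LY replicate 1 or LY replicate 2), 1 call (LY replicate 3: Fdps) 2 calls (black replicate 3: Hmgcs1 and Fdps) or the same 4 genes (black replicate 2). Without both 90-day arrays that stood apart the count was 0. Leaving out a 90-day array cannot move the size of a 180-day difference. In the fits without a 180-day array the sizes moved little. The median difference ran from 0.845 to 0.961 and Idi1 from 1.28 to 1.57 on the log2 scale.

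**Figure D3:**
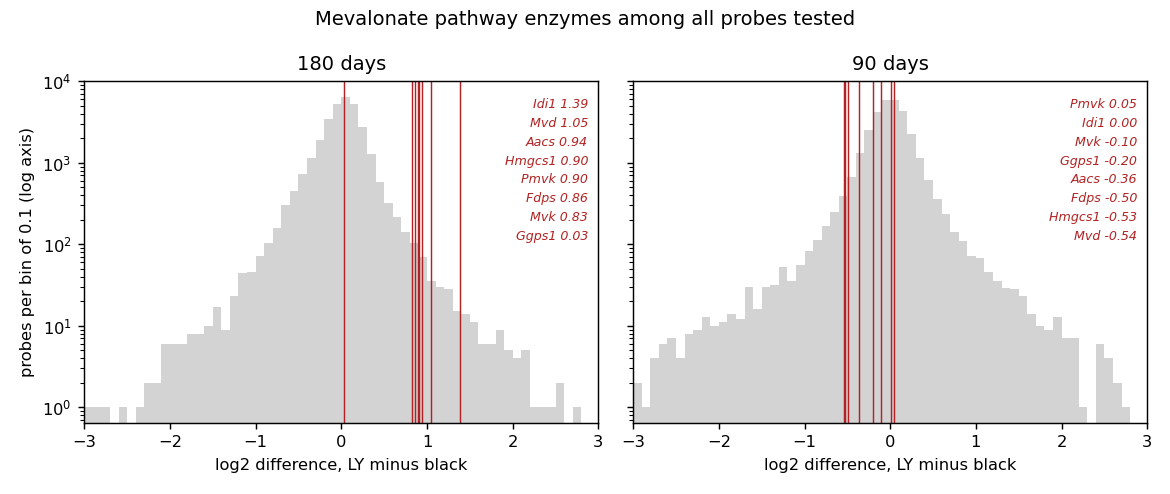
Histogram of the log2 difference of LY from black mice over all probes tested (bins of 0.1 from -3 to 3, log count axis) at 180 and at 90 days, with a red line at each of the 8 enzymes. At 180 days 7 lines lie together in the right tail, from 0.83 to 1.39, and Ggps1 lies at the centre, while at 90 days the lines spread from -0.54 to 0.05.

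At 90 days, 5 of the 8 enzymes (Aacs, Hmgcs1, Mvd, Fdps and Ggps1) were lower in every LY mouse, against 9.56% of all probes. With limma over all probes 0 of the 8 passed, as against 0.00638% of probes that rose and 0.0383% that fell. At an unadjusted p under 0.05, 4 of the 8 were lower (Aacs, Hmgcs1, Mvd and Fdps) and none higher, where 8.06% of all probes were lower. The methods' t-test called the same 4 before the Benjamini-Hochberg adjustment and none after it. With a group mean of at least 1 unit as the filter, limma called Hmgcs1 and Fdps lower, and with an intensity trend Fdps. The genotypes overlapped for Mvk, Pmvk and Idi1.

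The difference between the ages was itself tested as an interaction. It was larger than 0 for all 8 enzymes, at 1.59 on the log2 scale for Mvd (standard error 0.23), 1.43 for Hmgcs1 (0.16), 1.39 for Idi1 (0.25), 1.36 for Fdps (0.16), 1.30 for Aacs (0.23), 0.93 for Mvk (0.15), 0.85 for Pmvk (0.19) and 0.22 for Ggps1 (0.13). None passed with limma over all probes, where no probe at all passed (0% in either direction). The adjusted p of the first 6 lay between 0.0664 and 0.0889, that of Pmvk was 0.116 and that of Ggps1 0.528. At an unadjusted p under 0.05 the difference was larger at 180 days for 7 of the 8, against 8.01% of all probes. All 7 passed with an intensity trend or with the filter at 1 unit, and 3 (Hmgcs1, Mvd and Fdps) with a floor of 0.2 units. Mvd passed without 180-day LY replicate 2, and Hmgcs1 and Fdps without 90-day LY replicate 3.

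For 4 enzymes (Aacs, Hmgcs1, Mvd and Fdps) the separation of the genotypes was complete at both ages and turned round, with LY mice on top at 180 days and at the bottom at 90 days, a pattern held by 1.79% of all probes. They include the second entry (Aacs), the HMG-CoA synthase (Hmgcs1), the enzyme that makes the isoprenoid unit (Mvd) and the one at the branch point (Fdps). Whether the place of an enzyme in the route goes with this pattern was not tested. Idi1, with the largest difference at 180 days, had none at 90 days.

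**Figure D4:**
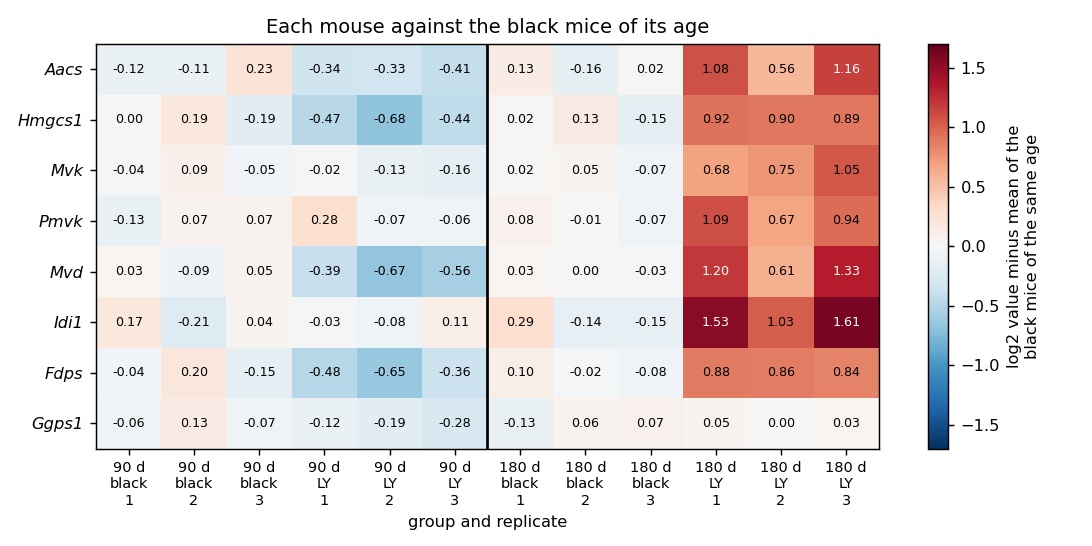
Log2 value of each enzyme in each mouse minus the mean of the black mice of its age (red higher, blue lower, values printed in the cells), with the 90-day arrays on the left and the 180-day arrays on the right. The 3 LY mice of 180 days are red in every row but that of Ggps1, with replicate 2 the palest for Aacs, Pmvk, Mvd and Idi1, and the LY mice of 90 days are blue for Aacs, Hmgcs1, Mvd, Fdps and Ggps1.

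Whether the enzymes varied together between mice was not tested. Among LY mice of 180 days, replicate 2 was the lowest for 5 of the 8 enzymes and the highest for none. Relative to the mean of the black mice, Idi1 stood at 1.03 on the log2 scale in replicate 2 and at 1.53 and 1.61 in replicates 1 and 3, Mvd at 0.61 against at least 1.2, and Aacs at 0.56 against 1.08 and 1.16. Hmgcs1 and Fdps did not follow that mouse, at 0.89 to 0.92 and at 0.84 to 0.88 in all 3. The median over the 8 enzymes was 1.00, 0.71 and 0.999 in the LY mice of 180 days and -0.23, -0.26 and -0.32 in those of 90 days. Other groups had like counts: 180-day black replicate 3 was the lowest for 6 of the 8 enzymes, and 90-day LY replicate 2 for 5.

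The levels of the 4 groups are given side by side because each age was hybridized as a set of its own. Black mice of 180 days lay below black mice of 90 days, with no overlap, for 7 of the 8 enzymes, all but Ggps1, at ratios of the means from 0.324 for Idi1 to 0.845 for Pmvk, where 25.2% of all probes did so. LY mice of 180 days lay above LY mice of 90 days, with no overlap, for 4 of the 8 (Hmgcs1, Pmvk, Fdps and Ggps1), where 34.1% of all probes did so. From low to high, Aacs, Hmgcs1, Mvk and Mvd ran in the order 180-day black, 90-day LY, 180-day LY and 90-day black. In that order the 180-day black mice were separate from their neighbour for all 4 enzymes, 90-day and 180-day LY mice were separate only for Hmgcs1, and 180-day LY mice overlapped 90-day black mice for all 4. Idi1 ran from 180-day black to 180-day LY, 90-day LY and 90-day black, and the last 3 overlapped from one to the next. Pmvk and Fdps were highest in 180-day LY mice, above each of the other groups without overlap, including 90-day black mice, which 32% of all probes did. The neighbouring groups of Ggps1 all overlapped.

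RefSeq promoters, 250 bases before to 50 after the start of transcription on GRCm38.p6, were found for 8 of the 9 genes (not for Fdps). The 4 printed are those of 3 genes that rose at 180 days and of Ggps1, which overlapped between the genotypes in the same mice. Capitals mark the core of the sterol regulatory element, searched as CACNCCAC and in its stricter form TCACNCCAC, and the box CCAAT, all on both strands, so that the box also appears as ATTGG.
Hmgcs1 (chr13:119690101-119690400, plus strand): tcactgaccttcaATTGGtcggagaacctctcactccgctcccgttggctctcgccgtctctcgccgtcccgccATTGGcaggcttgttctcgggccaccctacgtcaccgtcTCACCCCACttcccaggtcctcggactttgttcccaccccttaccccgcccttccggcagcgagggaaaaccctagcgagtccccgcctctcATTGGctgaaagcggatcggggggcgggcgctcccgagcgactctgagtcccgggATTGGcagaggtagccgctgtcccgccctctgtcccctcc
Mvk (chr5:114444019-114444318, plus strand): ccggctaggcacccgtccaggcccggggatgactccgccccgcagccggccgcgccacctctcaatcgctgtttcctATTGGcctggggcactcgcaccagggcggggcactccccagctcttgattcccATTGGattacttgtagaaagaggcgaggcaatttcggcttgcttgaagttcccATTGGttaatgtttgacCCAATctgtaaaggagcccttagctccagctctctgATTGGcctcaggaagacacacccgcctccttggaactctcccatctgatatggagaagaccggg
Idi1 (chr13:8885356-8885655, plus strand): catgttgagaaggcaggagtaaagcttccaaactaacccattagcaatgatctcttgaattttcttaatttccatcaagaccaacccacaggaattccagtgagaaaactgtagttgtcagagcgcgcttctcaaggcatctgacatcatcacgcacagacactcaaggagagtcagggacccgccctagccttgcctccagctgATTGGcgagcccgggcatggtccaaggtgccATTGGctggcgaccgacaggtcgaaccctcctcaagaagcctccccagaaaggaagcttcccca
Ggps1 (chr13:14063439-14063738, minus strand): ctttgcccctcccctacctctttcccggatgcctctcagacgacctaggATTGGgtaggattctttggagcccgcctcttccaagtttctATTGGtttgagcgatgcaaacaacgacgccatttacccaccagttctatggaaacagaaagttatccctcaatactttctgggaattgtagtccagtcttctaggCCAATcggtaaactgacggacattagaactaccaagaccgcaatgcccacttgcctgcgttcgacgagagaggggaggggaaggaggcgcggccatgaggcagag

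Hmgcs1 alone among the 9 promoters of the 8 genes (Pmvk has 2) held the stricter core, 137 to 129 bases before the start, where 1.24% of all 32851 promoters hold it. The looser core was found there and in 2 places in Acat2, against 6.24% of all promoters. Since the looser form is contained in the stricter, these overlap in Hmgcs1. CCAAT occurred 5 times in Mvk, 4 times in Hmgcs1, 3 times in Ggps1, 2 times each in Mvd and Idi1 and 1 time in Pmvk, where 37.4% of promoters hold at least 1 and 11.7% at least 2. Whether the number of these boxes goes with the difference at 180 days was not tested. The GC box GGGCGG occurred 3 times in Hmgcs1, 2 times in Mvk and 1 time each in Mvd, Idi1 and Acat2 (35.7% of promoters hold it), and the E box CACGTG in none of them (7.15%). Aacs held none of the 5 motifs. These are matches of letters in a window of 300 bases, and binding was not measured.

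Downstream of Fdps, the enzymes from squalene to cholesterol were mostly higher as well. All 12 measured had a higher estimate in LY mice of 180 days (median 0.75 on the log2 scale), 9 of them without overlap, and 2 rose past the threshold, Cyp51, the lanosterol demethylase (1.31, adjusted p = 0.0289 from limma), and Lss, lanosterol synthase (1.09, from a mean of 2.23 to one of 4.84 units, adjusted p = 0.0394). Of all probes, 14.2% were above without overlap at 180 days and 0.0415% rose past the threshold. Msmo1, the sterol C4 oxidase, had 1.00 (adjusted p = 0.0512 from limma). At 90 days 11 of the 12 had a lower estimate in LY mice (median -0.32), none past the threshold. The turned pattern of Hmgcs1 was held by 5 of the 12 and by 1.79% of all probes.

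Genes that serve other uses of farnesyl and geranylgeranyl diphosphate, among them enzymes that act on proteins already prenylated, had smaller differences. Of 13 tested, none passed the threshold at either age, with a median of 0.07 at 180 days and -0.15 at 90 days. At 180 days 4 of the 13 were above without overlap, as were 14.2% of all probes. Nus1 had the turned pattern, which 1.79% of all probes held. The 3 with the smallest p at 180 days were Nus1, a subunit of the dolichol synthase (0.30, adjusted p = 0.281 from limma), Zmpste24, the protease that trims prenylated prelamin A (0.31, adjusted p = 0.381), and Rabggta, a subunit of the transferase that geranylgeranylates Rab proteins (0.27, adjusted p = 0.418).

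On the supply side, 8 enzymes and carriers of acetyl-CoA and ketone bodies were tested and none passed at either age (median 0.21 at 180 days and -0.29 at 90 days). Of the 8, 5 were above without overlap at 180 days (14.2% of all probes) and 3 below at 90 days (9.56% of all probes). Acss2, which makes acetyl-CoA from acetate, had 0.45 at 180 days and -0.68 at 90 days (adjusted p = 0.261 and 0.103 from limma), and Acly, which makes it from citrate, had 0.59 and -0.43 (adjusted p = 0.269 and 0.367). Acat1, the mitochondrial thiolase, had 0.24 and 0.12 (adjusted p = 0.307 and 0.592). Acss2 is among the 2 of these 8 with the turned pattern, which 1.79% of all probes held.

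Of 8 tested genes that regulate SREBP-2 or answer to it, none passed at either age (median 0.05 at 180 days and -0.13 at 90 days). Srebf2, which encodes SREBP-2, had 2.83 units in black and 3.90 in LY mice of 180 days and 3.07 and 2.27 in those of 90 days, with no overlap at either age (log2 differences 0.46 and -0.43, adjusted p = 0.133 and 0.114 from limma). Mbtps1, the protease that makes the first cut in SREBP-2, had -0.54 and 0.02 (adjusted p = 0.291 and 0.983). Insig1, which holds SREBP-2 in the endoplasmic reticulum, had 1.06 and -0.01 (adjusted p = 0.305 and 0.997), at means of 0.233 to 0.512 units, near the limit of sensitivity.

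By root mean square distance of the log2 values over the 12 arrays, each taken relative to the black mice of its age, the 5 genes nearest to the median of the 8 enzymes were sought among 10738 genes with a mean of at least 1 unit. They were Msmo1 (0.122), Mrap, an accessory protein of melanocortin receptors (0.143), Me1, the malic enzyme (0.147), Lss (0.153) and Fdft1, squalene synthase (0.154). Of the enzymes themselves Mvk (0.129) and Aacs (0.134) were nearest to their own median, to which each contributes, and Idi1 (0.321) and Ggps1 (0.449) farthest. Mrap had a log2 difference of 0.86 at 180 days and -0.40 at 90 days (adjusted p = 0.0512 and 0.231 from limma).

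Markers of the cell types of the ovary and its surroundings were set beside the enzymes, the values of black mice first. At 180 days the sum of 6 granulosa cell markers ran from 201 to 264 units in black and from 144 to 194 in LY mice, with 1 of the 6 below without overlap (Inhba), and the sum of 6 oocyte markers from 47.2 to 60.8 and from 32.2 to 43.3, with 2 below (Zp2 and Zp3), where 8.36% of all probes lay below. The median log2 differences of both lists were -0.38 and -0.33, and in each list 1 of the 6 had a higher estimate in LY mice. The brightest probes weigh most in these sums. Inhba had means of 115 and 85.9 units, Inha 83.1 and 66.4, and Zp3 31.4 and 18.7. The sum of 2 theca markers ran from 133 to 195 and from 155 to 253 units, mostly Cyp17a1, and that of 5 adipocyte markers from 19.7 to 44.2 and from 25.1 to 27.2, where Lep alone was above without overlap, at means of 0.0499 and 0.325 units. The sum of 3 adrenal markers ran from 0.586 to 0.794 and from 0.820 to 0.996 units, summed over 3 genes that lay near the limit of sensitivity (Cyp11b2, Cyp21a1 and Mc2r). The 2 luteal markers summed to 3.76 to 32.8 and 2.16 to 6.67 units, the 2 macrophage markers to 34.1 to 54.4 and 28.8 to 54.4, 3 oviduct markers to 2.11 to 2.51 and 2.27 to 2.46, and 3 liver markers to 0.680 to 0.867 and 0.869 to 0.960. No gene of these lists passed limma's threshold at either age. At 90 days the granulosa sum ran from 208 to 299 units in black and from 216 to 310 in LY mice and the oocyte sum from 44.2 to 55.8 and from 49.4 to 51.8. The luteal sum did not overlap at 90 days, at 12.6 to 18.2 units in black and 5.63 to 7.70 in LY mice. Nor did the sum of 3 oviduct markers, at 4.54 to 7.03 units in black and 3.41 to 3.58 in LY mice of 90 days. Most of that sum was Ovgp1, at means of 4.73 and 2.78 units. The part of cell composition in the differences of the enzymes was not tested.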

How the data were processed

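Labelled RNA of single ovaries was hybridized to one-colour CodeLink Whole Mouse Genome arrays. The authors scanned the slides, used the CodeLink software for background correction and set the 50th percentile of a slide to 1 in GeneSpring. The deposited values are intensity units on a linear scale, with array medians of 1.00 (180 days) and 1.04 (90 days). They do not carry the scaling by gene medians that the methods mention.

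Here the values were divided by the median of their array, raised to a floor of 0.01 units and taken to log2. A probe was tested if its mean reached 0.2 units in any group and no group lacked a value (31359 of 36227). Group means were estimated with limma 3.58.1 (R 4.3.3) on the 12 arrays together, with 8 residual and 2.46 prior degrees of freedom. Benjamini-Hochberg adjustment ran over all probes, with a threshold of 0.05. Folds and intervals are from this fit, and the number of arrays limits their precision. Where probes share a gene, the brightest stands for it. Besides the enzymes, the text names up to 3 genes of each other list, by p at 180 days, and the 5 nearest in pattern; Inha, Alb, Idi2, Inhba, Zp2, Zp3, Cyp17a1, Lep and the adrenal markers were named after their values were seen. Members and lists were chosen with earlier results of these data known. Replicates are separate mice. The code was tested on simulated data.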

Additional observations from a re-analysis of the deposited data

Results flagged for a closer look

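In 4 enzymes all LY mice exceeded all black mice at 180 days and fell short of all of them at 90 days, as in 1.79% of all probes. The 180-day minus the 90-day difference was 1.30 on the log2 scale for Aacs, 1.43 for Hmgcs1, 1.59 for Mvd and 1.36 for Fdps. The difference between the ages was tested in limma and did not pass over all probes for any of them (adjusted p = 0.0879, 0.0664, 0.0704 and 0.0664).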

How the results depend on the processing

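The median difference over the 8 enzymes kept its direction under all 26 alternatives at both ages (0.845 to 0.961 at 180 days, -0.345 to -0.214 at 90 days). Many of these could not move it, since they change only the test or the probes tested, or leave out arrays of the other age. Those that could were the unscaled values, quantile normalization, log2(value + 0.1), array quality weights and leaving out arrays of the same age. The counts of calls moved. At 180 days the 4 calls became 7 with a floor of 0.2 units, a filter at 1 unit, an intensity trend, array quality weights or the methods' t-test without adjustment, 6 with log2(value + 0.1), and 0 without a filter, with limma on 1 age alone, with the methods' t-test after Benjamini-Hochberg, or without 90-day black replicate 1 and 90-day LY replicate 1 together (chosen after seeing the data). With 1 array left out they ran from 0 to 4 at 180 days, 0 at 90 days throughout, and from 0 to 2 for the difference between the ages. The 0 calls at 90 days became 2 with a filter at 1 unit, 1 with an intensity trend and 4 with the methods' t-test without adjustment. The 0 calls of the difference between the ages became 7 with a filter at 1 unit or an intensity trend, 3 with a floor of 0.2 units or log2(value + 0.1), 2 with array quality weights and 1 with quantile normalization. The cause of these changes was not tested. With the replicate number as a block the calls at 180 days became 0, with 0 at 90 days and 0 for the difference between the ages. The labels and methods name no pairing of mice by number. Deviations of same-numbered mice correlated at -0.00311, -0.0723 and -0.0555 at 180 days. At 90 days the correlations were 0.148, 0.0734 and 0.0513, all positive, and not every mouse correlated best with its own number. These correlations cannot settle whether same-numbered mice belong together, so the block fit stands beside the main fit. Signs turned only where the difference was near 0: Ggps1 at 180 days ran from -0.0361 (without 180-day black replicate 1) to 0.0609 with 1 array left out; Pmvk at 90 days was -0.0167 with array quality weights, -0.0163 and -0.0643 without 90-day black or LY replicate 1, and -0.13 without both, and at most 0.108 with 1 array left out; Idi1 at 90 days was -0.01 with array quality weights, -0.103 without 90-day black replicate 2 and -0.051 without 90-day LY replicate 3, and at most 0.0906 with 1 array left out. Averaging the probes of a gene changed nothing, since each enzyme has 1 probe.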
